A study of Rattus norvegicus with 15 samples.

Results

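Jejunal mucosal cells (3 samples) were compared with colonic mucosal cells (3 samples) of untreated male Sprague Dawley rats, the 6 samples being chosen by their titles out of 15 in the series. The jejunum is the middle stretch of the small intestine and the colon the main part of the large intestine. The 9 other samples, 3 each of stomach, duodenum and ileum, entered the model only to estimate the spread between samples and are otherwise used for a few levels beside the main result. In every group the bowel segment had been turned inside out and its mucosal cells released by a brief pronase digestion and sorted by elutriation, a separation by size and density, so that the measurements describe suspended cells and not intact mucosa. RNA came from independent isolations, 3 per segment, labelled with the dye Cy3 or Cy5 and hybridised to 2-colour Agilent arrays of the whole rat genome. Whether each isolation was a different animal is not given in the labels, and the p-values below therefore measure only the spread between these samples, which may be technical.

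The jejunum is the main site where the products of digestion are taken up. Its absorptive cells carry digestive enzymes and transporters on a brush border of microvilli, pack dietary fat into chylomicrons, and lie beside endocrine cells that report the arriving meal to the rest of the body. The colon receives what is left, recovers salt and water under the control of aldosterone, absorbs short-chain fatty acids made by bacteria, and keeps a dense bacterial population away from its cells with a thick mucus layer. The position of a segment along the gut is held in part by transcription factors, among them the Hox proteins and members of the Cdx and Gata families.

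A level here is the log2 of a spot's signal minus the 75th percentile of its sample, so that 0 is the brightness below which 75% of spots lay, and levels are compared between samples for one gene at a time. A difference is the jejunal minus the colonic level on the log2 scale as fitted by limma, given with its standard error (SE) and its p-value adjusted over all genes by the Benjamini-Hochberg method, and a gene is said to have risen or fallen in the jejunum only where that adjusted p was under 0.05. Of 26815 genes tested, 3758 (14.0%) rose and 4542 (16.9%) fell in the jejunum, 31.0% in all, and these shares are the background against which each group of genes below is read. A settled symbol, not a clone, accession or provisional name, was held by 13033 of the genes tested, of which 1722 rose and 2432 fell. Of all genes called, 404 were at least 8-fold higher and 274 at least 8-fold lower. The median difference over all genes was -0.20 and the median SE was 0.40. Of the genes tested, 830 had passed the background filter only through the jejunal samples and 7953 only through the colonic ones, and without the filter the median difference was -0.02. Without colonic sample 1, 2856 genes rose and 2964 fell.

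Spots were well above background for 52.4%, 87.9% and 89.6% of probes in jejunal samples 1 to 3, and for 74.5%, 90.6% and 78.8% in colonic samples 1 to 3. Jejunal sample 1 stood apart: it correlated at r = 0.92 and 0.93 with the other jejunal samples across genes, which correlated at 0.97 with each other, while the colonic samples correlated at 0.97 to 0.99 and jejunal with colonic samples at 0.79 to 0.85. It was the highest jejunal sample for 14 of 14 peptidases and 22 of 24 fat absorption genes, and the lowest for 25 of 28 genes of cell division, so some counts below are also given without it. Colonic samples 1 and 2 were the 2 channels of a single hybridisation and colonic sample 3 was scanned separately under the same slide barcode, whereas the jejunal samples came from 3 slides, each shared with a duodenal sample. Because no slide, scan day or software version held both segments, the segment and the array batch cannot be told apart in any result that follows.

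The marker genes given with the comparison matched the labels. Sucrase-isomaltase (Si), the brush border enzyme that splits sucrose and starch fragments, had levels of 6.76, 4.28 and 4.52 in the jejunum against -5.64, -5.36 and -6.47 in the colon, where its spots were not well above background in any sample. In the main processing it was at least 1031-fold higher in the jejunum (difference 10.90, SE 0.71, adjusted p = 3.15e-08). Under the alternatives given at the end of the text its difference ranged from 6.88 to 11.7. Mttp, which loads fat onto apolipoprotein B, differed by 10.08 (SE 0.63, adjusted p = 2.04e-08), with 6.61, 3.96 and 4.37 in the jejunum against -5.19, -4.64 and -5.97 in the colon, and by 9.48 without jejunal sample 1. Gip, the gene of the gut hormone that amplifies insulin release after a meal, stood at 7.51, 5.82 and 6.27 in the jejunum and at -1.95, -1.70 and -2.40 in the colon, a difference of 8.49 (SE 0.56, adjusted p = 3.85e-08). In bulk samples such as these, fewer cells of a type and less RNA per cell cannot be told apart.

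On the colonic side, Mptx1, which encodes mucosal pentraxin, had levels of -4.20, -3.06 and -2.58 in the jejunum, against 6.66, 6.79 and 7.09 in the colon. That difference was -9.94 (SE 0.58, adjusted p = 9.99e-09), 982-fold lower in the jejunum, where 2 of 3 samples measured it above background. Hsd11b2, the enzyme that inactivates glucocorticoids and so leaves the mineralocorticoid receptor to aldosterone, fell by 5.99 (SE 0.42, adjusted p = 8.23e-08), with levels of -0.49, 0.58 and 0.45 in the jejunum and 6.05, 6.32 and 6.30 in the colon. Carbonic anhydrase 1 (Car1) fell by 5.61 (SE 0.56, adjusted p = 4.07e-06), with 2.82, 0.52 and 0.90 in the jejunum against 6.88 and 7.08 in colonic samples 1 and 2. Without jejunal sample 1 the Car1 difference was -6.27. The Car1 spot of colonic sample 3 had been flagged by the scanner software and was left out. For each of the 6 markers the jejunal and colonic samples did not overlap, which held for 23.0% of all genes with the jejunum above and 30.4% with the jejunum below.

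**Figure D1:**
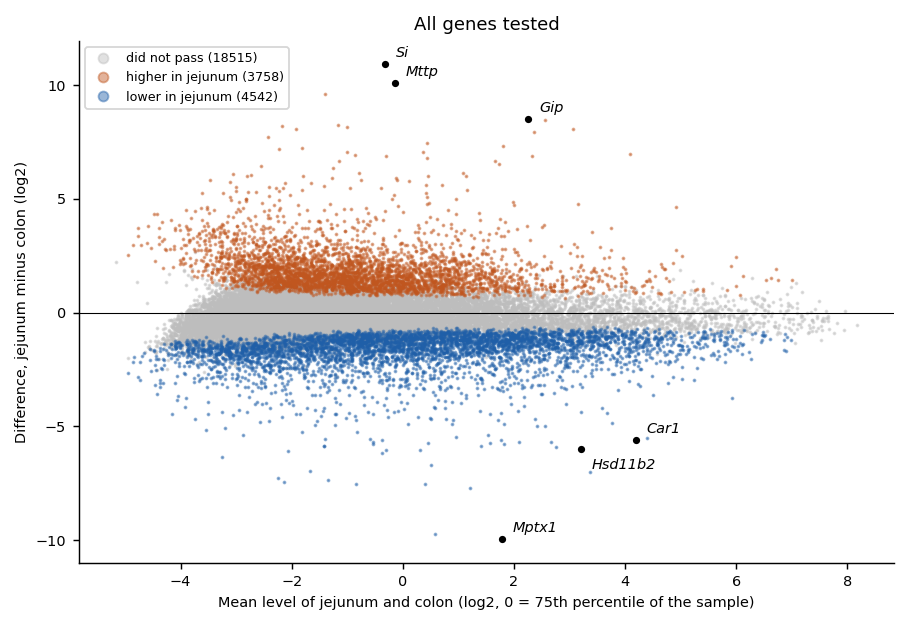
Difference between jejunum and colon (log2, vertical axis) against the mean level over both segments (log2 relative to the 75th percentile, horizontal axis) for the 26815 genes tested, with orange points higher and blue points lower in the jejunum at an adjusted p under 0.05 and grey points not passing. The named markers Si, Mttp and Gip lie near the top at 8.49 to 10.90, and Mptx1 lies near the bottom at -9.94.

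The 15 genes with the largest rises that also passed with each of the 6 samples left out in turn began with Si, Mttp and Hnmt. Hnmt, which methylates histamine, had levels of 3.20, 3.26 and 3.79 in the jejunum against -5.74, -6.36 and -6.54 in the colon, and was at least 310-fold higher (difference 9.61, SE 0.34, adjusted p = 6.74e-11). The secreted phospholipase Pla2g12a was at least 231-fold higher, with 2.81, 3.02 and 3.16 in the jejunum against -4.73, -6.02 and -5.28 in the colon. These genes varied little among the jejunal samples, unlike Si and Mttp, which stood well above the other jejunal samples in jejunal sample 1. A further 4 were not well above background in any colonic sample: the fructose transporter Slc2a5, at least 259-fold higher, the amino acid transporter subunit Slc3a1 at least 136-fold, Leg1 at least 120-fold and the regenerating-family lectin Reg1a at least 82.9-fold. These bounds, and those of Hnmt and Pla2g12a, hold for the main processing only. Under the alternatives the lowest differences were 5.11 for Hnmt, 4.73 for Pla2g12a, 4.62 for Slc2a5, 3.94 for Slc3a1, 3.99 for Leg1 and 3.06 for Reg1a. The apolipoprotein gene Apoa4 differed by 8.05, the DNA-digesting enzyme Dnase1 by 7.94, glutamyl aminopeptidase (Enpep) by 7.46, the retinol carrier Rbp2 by 7.33, Exoc3l4 by 7.07 and the glutathione transferase Gsta2 by 6.96, each with adjusted p-values between 2.33e-07 and 2.34e-06. Without jejunal sample 1 the differences were 7.45 for Leg1, which had 3.98, 1.09 and 1.07 in the jejunum against -5.81, -6.58 and -6.77 in the colon, 7.46 for Slc2a5, 6.77 for Enpep and 6.73 for Rbp2. Without jejunal sample 2 they were 8.81 for Leg1 and 7.95 for Rbp2, and without colonic sample 1 that of Reg1a was 8.62. In 1 jejunal sample the Apoa4 spot was saturated, so that level is a lower limit. Where a gene had several probes, their differences between simple means of the samples could disagree: those of 3 Enpep probes lay between 0.42 and 7.77, and those of 2 Mttp probes were 4.06 and 10.25. For all 15 genes the mean level in the ileum lay between those of the jejunum and the colon, and for 14 the duodenal mean lay nearer the jejunum than the colon.

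The 15 genes with the largest falls were led by Mptx1 and Sval1. Levels of Sval1 were -4.70, -3.87 and -4.29 in the jejunum against 5.0, 5.30 and 6.06 in the colon (difference -9.72, SE 0.46, adjusted p = 1.41e-09). Ccn3, a secreted matrix-associated protein, had levels of -0.58, 0.28 and -0.21 in the jejunum against 6.79, 6.92 and 7.03 in the colon, and fell by 7.01 (SE 0.34, adjusted p = 1.86e-09). Thrombospondin 4 (Thbs4) fell by 7.72 with jejunal sample 2 left out for a flagged spot, the cell cycle regulator Rgcc by 7.53, the surface protein Cd177 by 7.52, and the trypsin inhibitor Spink1 by 6.71. In the main processing the bone and epithelial glycoprotein osteopontin (Spp1) was at least 22.9-fold lower and the homeobox gene Hoxa4 at least 45-fold lower. These are bounds, since neither gene was well above background in any jejunal sample. Under the alternatives their smallest falls were -2.78 for Spp1 and -3.41 for Hoxa4. Plet1 fell by 6.17, the Wnt-binding protein Sfrp2 by 6.04, the actin-associated Pdlim3 by 6.01, Mcub, an inhibitory subunit of the mitochondrial calcium channel, by 5.90, and Clec14a by 5.85, with adjusted p-values from 1.94e-08 to 7.77e-07. Probes of the same gene disagreed in size for Spink1 (-6.81 and -1.79), Sfrp2 (-7.51 to -1.99), Pdlim3 (-6.23 and -2.89) and Clec14a (-5.93 and -2.06). Without jejunal sample 3 the difference was -6.86 for Pdlim3 and -5.72 for Spp1. The ileal mean lay between those of the jejunum and colon for 13 of the 15, and the duodenal mean lay nearer the jejunum for all 15.

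**Figure D2:**
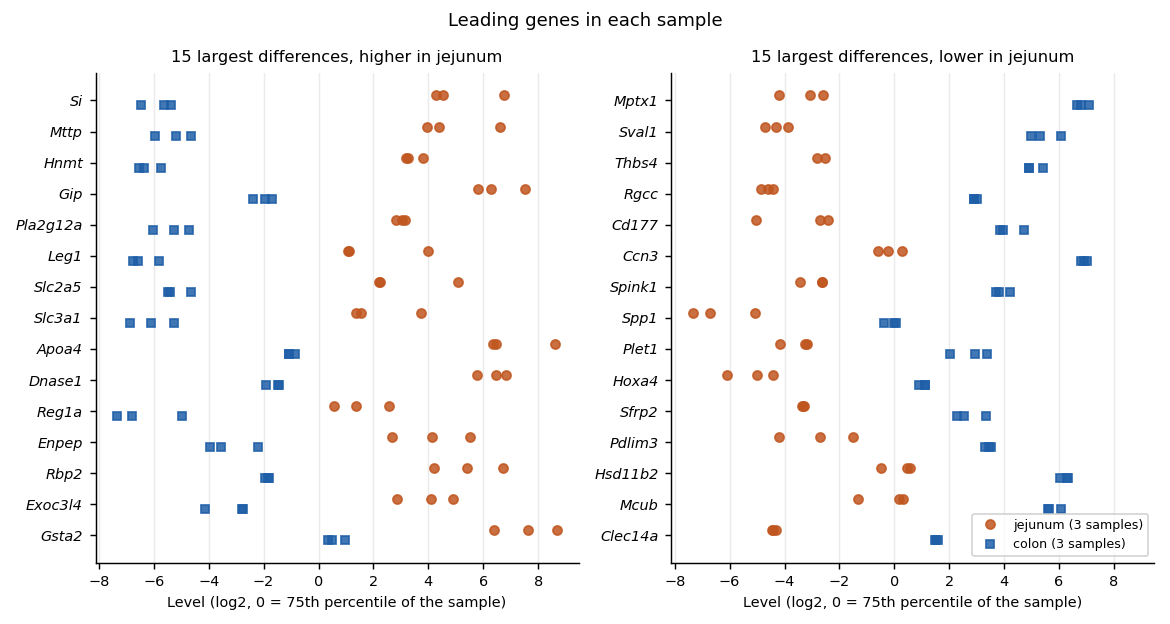
Levels (log2 relative to the 75th percentile of each sample) of the 15 genes with the largest rises and the 15 with the largest falls in the jejunum, with jejunal samples as orange circles and colonic samples as blue squares, 1 point per sample. The points of the segments do not overlap, as the choice of these genes required, and the spread within the jejunum is wide for Si, Mttp and Slc2a5 and narrow for Hnmt and Pla2g12a.

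Promoter sequences are shown for the 3 leading genes with the largest rises and the 3 with the largest falls among those that had one, whether or not they held a motif, a choice made after the matches were known. RefSeq's table for the assembly GRCr8 held a window from 250 bases before to 50 after the start of transcription for 25 of the 31 leading genes and markers. Si lies on the minus strand (chr2:159884853-159885152), Hnmt on the minus strand (chr3:27010242-27010541), Gip on the plus strand (chr10:81464820-81465119), Mptx1 on the minus strand (chr13:88263820-88264119), Sval1 on the plus strand (chr4:71811613-71811912) and Thbs4 on the minus strand (chr2:25760296-25760595). Each sequence runs 5′ to 3′ on the strand of its gene, and capitals mark matches found on either strand. Cdx proteins bind the letters TTTATNG. Proteins of the Gata family are known to bind AGATAA, and Hnf4 proteins bind CAAAGTCCA.
Si: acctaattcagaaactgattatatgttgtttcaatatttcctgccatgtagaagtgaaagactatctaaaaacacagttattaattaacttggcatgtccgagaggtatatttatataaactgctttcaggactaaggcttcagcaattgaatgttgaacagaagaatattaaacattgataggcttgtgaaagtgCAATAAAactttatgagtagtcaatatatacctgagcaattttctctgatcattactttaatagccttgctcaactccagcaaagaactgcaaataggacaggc
Hnmt: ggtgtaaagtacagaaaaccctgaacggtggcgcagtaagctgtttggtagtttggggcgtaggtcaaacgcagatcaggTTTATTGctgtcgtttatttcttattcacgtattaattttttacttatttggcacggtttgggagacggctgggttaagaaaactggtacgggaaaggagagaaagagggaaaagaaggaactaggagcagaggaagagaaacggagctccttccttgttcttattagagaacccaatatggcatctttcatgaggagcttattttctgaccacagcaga
Gip: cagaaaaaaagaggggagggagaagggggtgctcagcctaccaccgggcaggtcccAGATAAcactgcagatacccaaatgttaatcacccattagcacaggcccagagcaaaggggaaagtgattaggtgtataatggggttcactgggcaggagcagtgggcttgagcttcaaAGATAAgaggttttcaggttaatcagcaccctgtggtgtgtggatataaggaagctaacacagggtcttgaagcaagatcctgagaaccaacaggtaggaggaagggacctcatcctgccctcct
Mptx1: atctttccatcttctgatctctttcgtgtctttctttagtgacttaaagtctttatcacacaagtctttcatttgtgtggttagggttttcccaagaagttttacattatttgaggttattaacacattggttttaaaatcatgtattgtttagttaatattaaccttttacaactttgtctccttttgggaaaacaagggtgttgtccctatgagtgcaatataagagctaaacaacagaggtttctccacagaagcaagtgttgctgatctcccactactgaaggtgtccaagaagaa
Sval1: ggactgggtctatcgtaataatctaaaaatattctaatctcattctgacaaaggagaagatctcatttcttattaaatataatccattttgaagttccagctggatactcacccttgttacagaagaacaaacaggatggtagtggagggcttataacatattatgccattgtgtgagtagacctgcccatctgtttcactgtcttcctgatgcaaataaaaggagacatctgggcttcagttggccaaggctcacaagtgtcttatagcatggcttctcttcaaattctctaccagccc
Thbs4: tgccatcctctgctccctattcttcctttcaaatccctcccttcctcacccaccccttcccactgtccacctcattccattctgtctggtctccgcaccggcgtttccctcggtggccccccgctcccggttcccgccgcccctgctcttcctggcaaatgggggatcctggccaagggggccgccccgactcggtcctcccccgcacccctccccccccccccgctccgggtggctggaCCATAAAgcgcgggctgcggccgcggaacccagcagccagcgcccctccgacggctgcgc

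The Si window held the Cdx letters on the reverse strand at position -54, counted from the start of transcription. Cdx2 is known from mouse and human cells to bind the promoter of sucrase-isomaltase. The Hnmt window held the Cdx letters at position -170, and the Gip window the Gata letters at positions -194 and -75. The Mptx1 and Sval1 windows held no match to these motifs, and the Thbs4 window held the Cdx letters on the reverse strand at position -10. Over all leading genes with a window, 8 of 13 that rose and 3 of 12 that fell held at least 1 match to the Cdx, Gata, Hnf4 or Hnf1 letters. The share of all windows with any of these matches was not counted. These genes were chosen by their differences, so the counts are a description.

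Such matches are common for the short motifs and rare for the longest, and they describe letters, not bound sites. The Gata letters were in 14.2% of 155 windows of genes at least 8-fold higher in the jejunum and in 7.44% of 121 windows of genes at least 8-fold lower, against 8.4% of 10193 windows of genes tested and 11.2% of 24206 windows in the table. For the Cdx letters the shares were 11.6% and 10.7%, against 8.58% and 11.2%, and for the TATA letters 19.4% and 16.5%, against 10.6% and 14.3%. The Hnf4 letters were in 4 windows (2.58%) of the first set and in none of the second, against 0.363% of genes tested and 0.38% of all windows. The Hnf1 letters were in 4 windows (2.58%) of the first set and 2 (1.65%) of the second, against 0.363% and 0.347%.

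Most digestive enzymes of the brush border and cytosol rose in the jejunum, with exceptions among the peptidases. All 5 enzymes of the sugar-splitting and phosphatase list rose, against 14.0% of all genes, with a median difference of 5.19 (4.88 with Si and Lct at their bounds, against -0.20 over all genes), although Si and Lct entered the test only through the jejunum. Intestinal alkaline phosphatase (Alpi) had levels of 5.20, 3.26 and 3.13 in the jejunum against -3.04, -2.84 and -3.14 in the colon (difference 6.78, SE 0.63, adjusted p = 1.35e-06). In the main processing lactase (Lct) was at least 29.4-fold higher on its brightest probe, and its 2 probes differed by 2.50 and 5.22. Maltase-glucoamylase (Mgam) differed by 1.95 and trehalase (Treh) by 1.76.

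Of 14 peptidases, 10 rose and none fell, with a median difference of 2.24, although 2 of the 14 entered the test only through the jejunum. Prolidase (Pepd), which splits dipeptides ending in proline, had 3.74, 3.09 and 3.43 in the jejunum against -0.33, -0.02 and 0.17 in the colon (difference 3.49, SE 0.35, adjusted p = 2.74e-06). Enteropeptidase (Tmprss15), the enzyme that activates pancreatic trypsinogen, rose by 3.48, the dipeptidase Cndp2 by 3.37, neprilysin (Mme) by 3.28 and angiotensin-converting enzyme (Ace) by 2.58. In contrast, the brush border peptidases Dpp4 (-0.67, adjusted p = 0.209), Mep1a (-0.64, adjusted p = 0.272) and Mep1b (-0.41, adjusted p = 0.552) did not pass the test, and their jejunal and colonic samples overlapped. Without jejunal sample 1, 9 of the 14 rose and 2 fell. Summed signals of the 14, each relative to the 75th percentile of the sample, were 194, 54.2 and 79.8 in jejunal samples 1 to 3 and 56.5 to 60.4 in the colon, so jejunal sample 2 lay below the colonic samples. Aminopeptidase N (Anpep) differed by 0.13 (adjusted p = 0.797) on its brightest probe, while another of its probes differed by 6.61.

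Sugar handling rose from the membrane to the cytosol. Of 12 genes tested, 9 rose and 1 fell, with a median of 2.39, and 1 of the 12 entered the test only through the jejunum. Slc2a5 had levels of 5.09, 2.19 and 2.23 in the jejunum against -4.64, -5.43 and -5.47 in the colon, with jejunal sample 1 far above the other jejunal samples. The enzymes that process fructose after uptake rose with it: triokinase (Tkfc) by 5.27 (SE 0.43, adjusted p = 3.96e-07) and ketohexokinase (Khk) by 3.84. Glucose-6-phosphatase (G6pc1) differed by 4.43 and fructose-1,6-bisphosphatase (Fbp1) by 2.46, whereas Pck1, which catalyses an earlier step of glucose synthesis, fell by 2.84 (SE 0.52, adjusted p = 0.000743), with 2.06, -0.09 and -0.19 in the jejunum against 3.71, 3.16 and 2.84 in the colon. The sodium-driven glucose carrier Slc5a1 rose by only 1.65 (SE 0.35, adjusted p = 0.00229). Slc2a2, the glucose exit carrier, did not pass on its brightest probe (1.08, adjusted p = 0.0852), but another probe differed by 8.67.

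Amino acid transporters split. Of 16 tested, 6 rose, 3 fell and 7 did not pass (median 0.49), with 2 entering the test only through the jejunum and 2 only through the colon. Both subunits of the transporter for cystine and basic amino acids rose, Slc7a9 by 4.72 (SE 0.30, adjusted p = 2.55e-08), with 4.97, 3.87 and 4.26 in the jejunum against -0.35, -0.34 and -0.39 in the colon, and its partner Slc3a1 as given above. The peptide carrier Slc15a1 had 5.79, 3.13 and 3.57 in the jejunum against -2.25, -1.75 and -1.94 in the colon (difference 6.14, SE 0.64, adjusted p = 3.75e-06), and Slc7a7, the exit route for basic amino acids, rose by 4.51. Without jejunal sample 1 the Slc15a1 difference was 5.38, and without jejunal sample 3 it was 6.76. The 3 that fell were the glutamine and neutral amino acid carriers Slc1a5 (-2.17) and Slc38a2 (-2.10) and the glutamate carrier Slc1a1 (-1.56). Slc43a2 did not pass (0.46, adjusted p = 0.329) but its probes ranged from 0.54 to 3.72.

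Fat absorption held the largest block of rises. Of 24 genes tested, 19 rose, 2 fell and 3 did not pass, with a median difference of 2.98. Of the 24, 3 entered the test only through the jejunum and 1 only through the colon. The apolipoprotein genes Apoa1 (6.89), Apoc3 (5.82), Apoc2 (3.39) and Apob (3.36) rose together, though the Apob probes ranged from 0.36 to 5.09. Creb3l3, a membrane-bound transcription factor active in lipoprotein metabolism, had levels of 6.05, 4.35 and 4.74 in the jejunum against -1.55, -1.98 and -1.68 in the colon (difference 6.68, SE 0.74, adjusted p = 7.19e-06). The sterol transporters Abcg5 (5.55) and Npc1l1 (4.85) and the cholesterol-esterifying enzyme Soat2 (4.54) also rose. Fabp2, the intestinal fatty acid-binding protein, differed by 4.64 with 1 saturated jejunal spot. Its relative Fabp1 differed by 1.93 with all 3 jejunal spots saturated. Levels of Dgat1, which makes triglyceride, were 6.27, 4.18 and 4.62 in the jejunum and 1.99, 2.10 and 2.17 in the colon (difference 2.90, SE 0.49, adjusted p = 0.000378), while Dgat2 did not pass (1.12, adjusted p = 0.175). The 2 that fell were Abca1 (-1.66) and Acsl3 (-0.96), neither of which passed without jejunal sample 3 (adjusted p = 0.0677 and 0.103) or colonic sample 1 (0.0549 and 0.0689). Without jejunal sample 1, 17 of the 24 rose and 2 fell, and the differences were 6.19 for Apoa1, 4.26 for Npc1l1 and 2.57 for Apob, which stood at 3.96 without jejunal sample 3.

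**Figure D3:**
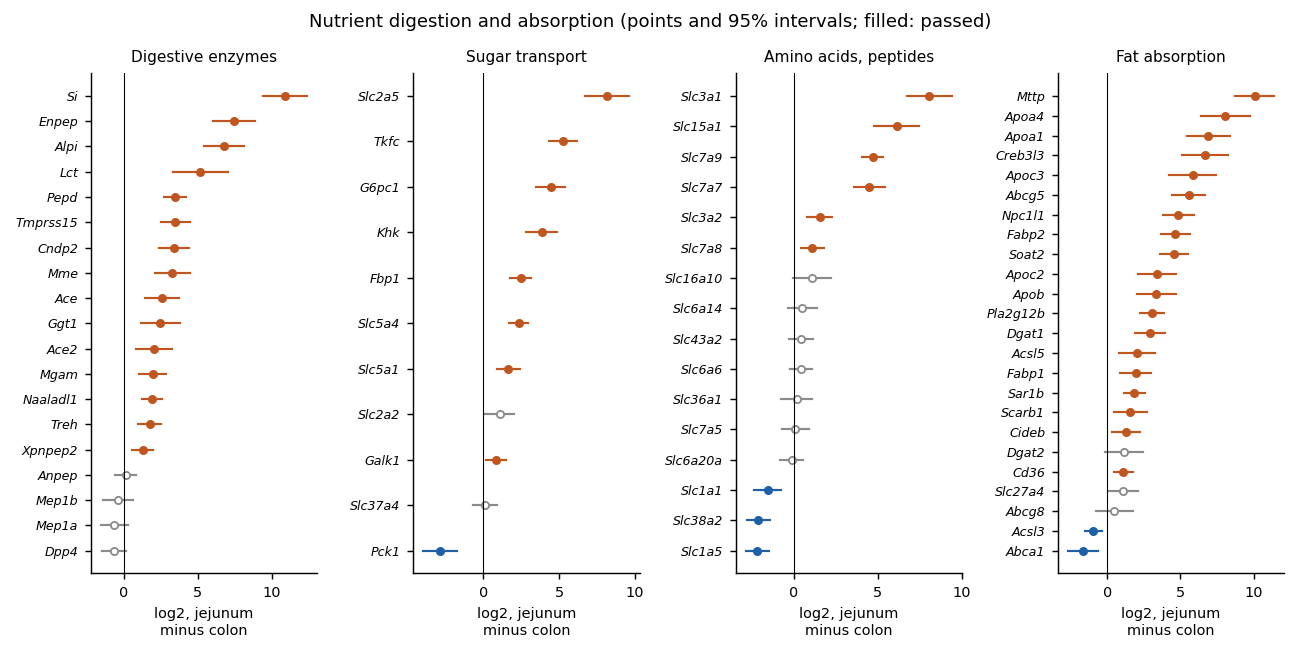
Differences between jejunum and colon (log2, points with 95% intervals from the model, horizontal axes of different length) for the reported digestive enzymes and genes of sugar, amino acid and peptide, and fat absorption, with filled orange points higher and filled blue points lower in the jejunum at an adjusted p under 0.05 and open grey points not passing. Si lies at 10.90, Mttp at 10.08 and Slc2a5 at 8.15, while the open points of Dpp4, Mep1a and Mep1b lie just left of 0.

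Uptake of vitamins and minerals was less uniform. Of 19 genes tested 7 rose and 2 fell (median 0.33), but 4 rose without jejunal sample 1 or 3 and 3 without colonic sample 1. The retinol carrier Rbp2 had 6.73, 4.22 and 5.40 in the jejunum against -1.96, -1.84 and -1.79 in the colon, and Lrat, which esterifies the retinol it carries, rose by 2.51 (SE 0.33, adjusted p = 3.4e-05), with a second probe at 0.21. The vitamin C carrier Slc23a1 rose by 4.73 and the vitamin B12 receptor subunits Amn and Cubn by 1.51 and 1.14, though neither passed without jejunal sample 1 (adjusted p = 0.092 and 0.0596), jejunal sample 3 (0.0668 and 0.0526) or colonic sample 1 (0.0897 and 0.0765), nor Amn without colonic sample 2 (0.0577). Iron genes did not follow: the ferric reductase Cybrd1 fell by 2.98 (SE 0.58, adjusted p = 0.00116), with 0.07, -2.36 and -1.96 in the jejunum against 1.19, 1.31 and 2.16 in the colon. Bco1, which splits beta-carotene, fell by 1.87, with probes at -1.64 and 2.45, and the iron exporter Slc40a1 did not pass (0.33, adjusted p = 0.578). The iron importer Slc11a2 did not pass either (0.46, adjusted p = 0.298), with probes ranging from 0.40 to 4.40. The Cybrd1 difference was -3.64 without jejunal sample 1. Calcium uptake genes Trpv6 (-0.37, adjusted p = 0.307) and S100g (-0.23, adjusted p = 0.662) overlapped between the segments.

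Enzymes of the route that turns glutamine into citrulline rose in the jejunum. Of 13 genes of citrulline, proline and urea metabolism, 8 rose and none fell (median 1.62), the same counts as without jejunal sample 1. Ornithine transcarbamylase (Otc) had levels of 2.06, 2.77 and 3.60 in the jejunum against -2.96, -2.53 and -3.68 in the colon (difference 5.91, SE 0.47, adjusted p = 2.7e-07), and carbamoyl phosphate synthetase 1 (Cps1) rose by 5.0 (SE 0.54, adjusted p = 4.8e-06). Arg2 (4.37), Aldh18a1 (2.50), the ornithine carrier Slc25a15 (2.48) and Oat (1.62) also rose. The later enzymes of arginine synthesis, Ass1 (-1.15, adjusted p = 0.118) and Asl (-0.15, adjusted p = 0.759), did not pass. The Otc difference was 5.28 without jejunal sample 3. In this group jejunal sample 1 was the highest of the 3 for 4 genes and the lowest for 5.

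Nucleic acid breakdown showed 8 rises and 3 falls among 14 genes (median 1.58). Besides Dnase1, with 6.82, 5.78 and 6.46 in the jejunum against -1.44, -1.93 and -1.48 in the colon, xanthine dehydrogenase (Xdh), which makes uric acid, rose by 6.89 (SE 0.38, adjusted p = 6.68e-09). The nucleoside carrier Slc28a2 rose by 4.13 and Upp1 by 2.62. Enpp1 (-2.75), Cda (-2.06) and Adk (-1.25) fell. Without jejunal sample 1, 6 rose and 4 fell.

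Other metabolic groups moved in part. Among 9 bile acid genes the basolateral exporter subunit Slc51a rose by 3.17 (SE 0.37, adjusted p = 1.05e-05) and 8 did not pass (1 fell without jejunal sample 1), including the ileal uptake carrier Slc10a2 (-0.20, adjusted p = 0.691). Of 20 genes of fatty acid oxidation and ketone synthesis 3 rose (15%, against 14.0% of all genes) and 4 fell (20%, against 16.9%). Without colonic sample 1, 2 fell. The differences of the 20 genes ranged from -4.42 to 2.01. Acads, which oxidises butyrate-length fatty acids, fell by 2.01. Of 20 genes of cholesterol synthesis none rose and 5 fell (against 16.9% of all genes), led by Idi1 (-2.15), and 8 fell without jejunal sample 1. Of these 20 genes, 3 entered the test only through the colon.

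Several hormone genes rose in the jejunum and 1 fell. Of 20 endocrine genes tested, 10 rose and 1 fell (median 0.92). Neurotensin (Nts) had levels of 3.18, 2.29 and 2.95 in the jejunum against -1.69, -1.95 and -2.19 in the colon (difference 4.76, SE 0.34, adjusted p = 9e-08). Cholecystokinin (Cck) rose by 4.09, secretin (Sct) by 2.92, ghrelin (Ghrl) by 2.81 and the tachykinin gene Tac1 by 2.37, and the general endocrine marker Chga by 2.02. Peptide YY (Pyy) fell by 5.67 (SE 0.41, adjusted p = 1.02e-07), with -1.60, -1.09 and 0.27 in the jejunum against 4.95, 4.8 and 5.17 in the colon. Proglucagon (Gcg), made by the same endocrine cells as Pyy, was lower in all jejunal samples but did not pass (-1.17, adjusted p = 0.145). The difference was 2.28 for Sct without jejunal sample 1 and -6.36 for Pyy without jejunal sample 3. Factors that specify endocrine cells, Neurog3 (-0.27, adjusted p = 0.612) and Neurod1 (0.30, adjusted p = 0.526), overlapped between segments.

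The aldosterone response was the counterpart on the colonic side. Of 17 genes of sodium absorption, 8 fell (47.1%, against 16.9% of all genes) and 3 rose, with a median of -1.43, and 10 fell without jejunal sample 1. Of the 17, 1 entered the test only through the jejunum and 1 only through the colon. The mineralocorticoid receptor Nr3c2 had levels of -0.15, -0.23 and 0.19 in the jejunum against 3.02, 2.77 and 2.86 in the colon (difference -2.91, SE 0.25, adjusted p = 5.65e-07). Fxyd4, a regulator of the sodium pump, fell by 5.24 (SE 0.44, adjusted p = 5.15e-07), its relative Fxyd3 by 2.65 and the channel-activating protease Prss8 by 1.43. The subunits of the epithelial sodium channel did not move as a set: Scnn1a fell by 2.07 (with a second probe at -0.46) and Scnn1b by 1.77, while Scnn1g rose by 2.24 (SE 0.37, adjusted p = 0.000308), with 0.16, 0.49 and 0.04 in the jejunum against -1.95, -1.92 and -2.32 in the colon. The aldosterone-induced kinase Sgk1 did not pass (-1.45, adjusted p = 0.109), nor did the sodium-proton exchanger Slc9a3 (0.17, adjusted p = 0.724). The scaffolds Pdzk1 (5.48) and Nherf1 (1.46) rose, Pdzk1 by 4.89 without jejunal sample 1, 6.35 without jejunal sample 3 and 4.43 without colonic sample 1.

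Channels and pumps for potassium, chloride and water followed in part. Of 19 tested, 7 fell and 1 rose (median -1.03), although 3 of the 19 entered the test only through the colon. The water channel Aqp3 had 1.80, 1.23 and 0.79 in the jejunum against 4.76, 4.69 and 4.14 in the colon (difference -3.33, SE 0.34, adjusted p = 3.52e-06). The colonic proton-potassium pump Atp12a fell by 3.07, the chloride loader Slc12a2 by 2.85, the chloride-bicarbonate exchanger Slc26a3 by 2.22 and the potassium channel subunit Kcne3 by 2.07. Uroguanylin (Guca2b), a peptide that makes the gut secrete fluid, rose by 3.19 (SE 0.48, adjusted p = 0.000139), while its receptor Gucy2c fell by 2.2 (SE 0.41, adjusted p = 0.00088). The related peptide Guca2a did not pass (-0.24, adjusted p = 0.726) and had 1 saturated jejunal spot. The Slc12a2 difference was -2.03 without jejunal sample 1 and -3.51 without jejunal sample 2. The chloride channel Cftr did not pass (-1.03, adjusted p = 0.0519).

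Of 14 genes of carbonic anhydrases, bicarbonate and short-chain fatty acid transport, 5 fell (35.7%, against 16.9% of all genes) and 1 rose (7.14%, against 14.0%). Of the 14, 2 entered the test only through the colon. Carbonic anhydrase 2 (Car2) had levels of 2.91, 0.60 and 0.67 in the jejunum against 6.17, 6.07 and 6.17 in the colon (difference -4.85, SE 0.62, adjusted p = 3.08e-05). As for Car1, jejunal sample 1 lay above the other jejunal samples, and without it the Car2 difference was -5.45. The list's falls came to 3 without jejunal sample 2, colonic sample 2 or colonic sample 3. Ffar2, a receptor for short-chain fatty acids, fell by 2.53 (SE 0.63, adjusted p = 0.00621), and their carrier Slc16a1 by 0.80 (adjusted p = 0.0497), a call held only when jejunal sample 1 was left out (adjusted p = 0.04) and lost without any of the other 5 (0.0705 to 0.256).

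Goblet cell genes did not move one way. Of 11 tested, 3 rose (27.3%, against 14.0% of all genes) and 4 fell (36.4%, against 16.9%). Zg16, a lectin that binds bacteria in mucus, had levels of 7.78, 6.52 and 7.22 in the jejunum against 4.25, 5.10 and 5.04 in the colon (difference 2.43, SE 0.39, adjusted p = 0.000268), and Clca1 rose by 1.54 and trefoil factor 3 (Tff3) by 1.44, with saturated jejunal spots for both. The adjusted p for Tff3 was 0.053 without colonic sample 1. Kallikrein 1 (Klk1) fell by 2.62 (SE 0.28, adjusted p = 5.46e-06), Agr3 by 1.43 and the gel-forming mucin Muc2 by 1.14 (adjusted p = 0.0212), the last not passing without colonic sample 1 (adjusted p = 0.0966) or jejunal sample 2 (0.0734).

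Genes of a list drawn up for mucin sugar chains were mostly lower, and whether each acts on mucins here was not tested. Of 17 glycosyltransferases, sulphotransferases and sugar carriers, 11 fell (64.7%, against 16.9% of all genes) and 2 rose (1 without jejunal sample 1 or 3 or colonic sample 2 or 3), with a median of -1.83, although 6 of the 17 entered the test only through the colon. St6galnac6 fell by 5.54 and St6galnac1, which adds sialic acid to the first sugar of the chain, by 4.19 (SE 0.39, adjusted p = 1.14e-06), with -1.48, -1.13 and -1.90 in the jejunum against 2.52, 2.56 and 2.91 in the colon. The sulphotransferase Chst5 fell by 3.89, B3gnt3 by 3.02 and the fucosyltransferase Fut1 by 2.55. The sialic acid carrier Slc35a1 (-2.33) and C1galt1 (-2.2), which makes the common core of these chains, fell too. Gcnt3, which branches the chain, rose by 1.89 (SE 0.34, adjusted p = 0.000694).

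Several antimicrobial products of the small intestine rose in the jejunum, with wide spread among its samples. Of 13 tested, 6 rose (46.2%, against 14.0% of all genes) and 2 fell (15.4%, against 16.9%), the falls being Mptx1 and lipocalin 2 (Lcn2, -2.89). Of the 13, 1 entered the test only through the jejunum and 2 only through the colon. Lyz2, annotated as lysozyme 2, had levels of 0.53, 3.58 and 4.37 in the jejunum against -1.14, -2.37 and -2.15 in the colon (difference 4.81, SE 0.83, adjusted p = 0.000439). The alpha-defensin Defa24, made by Paneth cells, had 0.75, 5.17 and 5.77 in the jejunum against 0.73, -2.42 and -3.07 in the colon. Jejunal sample 1 was the lowest jejunal sample for both and lay level with colonic sample 1 for Defa24, whose adjusted p of 0.00711 became 0.0652 without jejunal sample 3. The lectins Reg4 (4.34, SE 0.32, adjusted p = 1.08e-07) and Reg3b (3.79) rose. With 1 sample left out the difference ranged over 3.29 (without jejunal sample 3) to 7.18 (without colonic sample 1) for Defa24, 3.61 (without jejunal sample 3) to 5.84 (without jejunal sample 1) for Lyz2, and 3.05 (without jejunal sample 3) to 4.49 (without jejunal sample 2) for Reg3b.

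Several sensors of bacteria fell in the jejunum. Of 16 genes of oxidases and bacterial sensing, 8 fell (against 16.9% of all genes) and 1 rose (2 without jejunal sample 1), although 4 of the 16 entered the test only through the colon. The endotoxin receptor Tlr4 had levels of -2.53, -1.92 and -2.57 in the jejunum against 2.70, 2.50 and 2.43 in the colon (difference -4.91, SE 0.36, adjusted p = 1.02e-07), and its partners Cd14 (-4.32) and Ly96 (-2.25) fell with it. The hydrogen peroxide-producing oxidase Duox2 fell by 4.04, Tlr2 by 2.40 and Nos2 by 1.97, whereas Nox1 (0.60, adjusted p = 0.381) and the flagellin receptor Tlr5 (0.65, adjusted p = 0.0729) did not pass. Nlrp6, a cytosolic sensor, rose by 1.61. Of 13 genes of myeloid cells and MHC class II, 5 rose and none fell (8 rose without jejunal sample 2), and Csf1r (1.12, adjusted p = 0.096) and Cd68 (0.51, adjusted p = 0.28) did not pass. The largest of these rises (4.81) was that of Lyz2, which is also counted among the antimicrobial products above. The part of such cells in the sensing result was not tested.

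**Figure D4:**
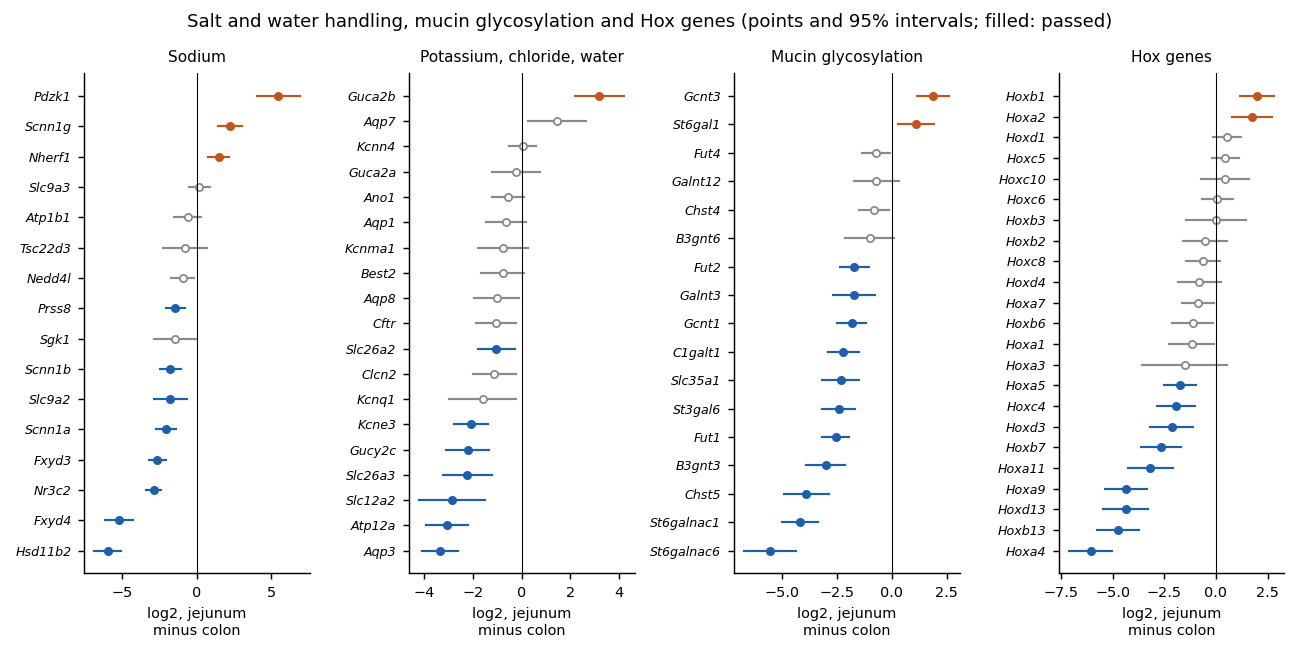
Differences between jejunum and colon (log2, points with 95% intervals from the model, horizontal axes of different length) for the reported genes of sodium transport, of potassium, chloride and water movement, of mucin glycosylation, and for Hox genes, with filled orange points higher and filled blue points lower in the jejunum at an adjusted p under 0.05 and open grey points not passing. Most filled points lie left of 0, with Scnn1g at 2.24 and Guca2b at 3.19 among those to the right.

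Hox genes of the posterior groups were detected in the colon. Of 16 listed genes of groups 9 to 13, 5 were tested and all 5 entered only through the colonic samples, so their count is no evidence of direction. Hoxb13 had levels of -3.69, -4.12 and -4.09 in the jejunum against 0.37, 1.07 and 1.22 in the colon (difference -4.75, SE 0.48, adjusted p = 2.8e-06). Hoxd13 fell by 4.37, Hoxa9 by 4.35 and Hoxa11 by 3.18, and Hoxc10 did not pass (0.45, adjusted p = 0.563). Of 18 genes of groups 1 to 8, 2 rose, 5 fell and 11 did not pass, and 8 of the 18 entered the test only through the colon, so this count is no evidence of direction either. Hoxa4 was the largest fall, with -4.43, -6.08 and -4.99 in the jejunum against 1.1, 1.11 and 0.90 in the colon, followed by Hoxb7 (-2.65), Hoxd3 (-2.13), Hoxc4 (-1.93) and Hoxa5 (-1.74, with probes at -5.58 and -1.63). Hoxb1 (1.99) and Hoxa2 (1.73) rose.

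Among 26 other regional transcription factors and nuclear receptors, 8 rose and 8 fell (30.8% each way, against 14.0% and 16.9% of all genes). Of the 26, 1 entered the test only through the jejunum and 4 only through the colon. Gata4, a factor of the upper small intestine, had levels of 2.31, 2.43 and 2.71 in the jejunum against -0.78, -0.64 and -1.41 in the colon (difference 3.43, SE 0.34, adjusted p = 2.21e-06). Tbx3 rose by 4.59 (SE 0.49, adjusted p = 4.64e-06), Pdx1 by 3.98 and Hnf4a by 2.07, the last with a second probe at -0.65. Cdx2, which specifies intestine as a whole, was bright in both segments, at 4.58, 4.85 and 5.06 in the jejunum and 6.51, 6.40 and 6.63 in the colon (difference -1.68, SE 0.28, adjusted p = 0.000337). Foxa2 (-2.41), Klf4 (-2.43), Klf5 (-2.17) and Hes1 (-2.67) fell. The Hes1 difference was -1.88 without jejunal sample 1 and -3.38 without jejunal sample 2.

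Of 34 cytochromes P450 and conjugating enzymes, 11 rose (32.4%, against 14.0% of all genes) and 4 fell (11.8%, against 16.9%). Without jejunal sample 3 or colonic sample 3, 2 fell. Of the 34, 1 entered the test only through the jejunum and 2 only through the colon. A pair of close glutathione transferases went opposite ways: Gsta2 had 8.68, 6.39 and 7.63 in the jejunum against 0.33, 0.48 and 0.97 in the colon, while Gsta1 had -2.23, -2.39 and -2.69 in the jejunum against 1.01, 0.92 and 1.04 in the colon (difference -3.45, SE 0.32, adjusted p = 1.09e-06). The alpha-class genes are similar in sequence, and whether their probes also bind each other's transcripts was not tested. Cyp1a1, induced by dietary and environmental aromatic compounds, was at least 37.4-fold higher in the main processing, with 2.81, -0.90 and -0.82 in the jejunum. Cyp3a18 (4.09), Cyp2d4 (3.72) and Ugt2b7 (3.52) rose. The difference was 5.09 for Cyp1a1 and 3.47 for Cyp3a18 without jejunal sample 1, 6.69 for Cyp1a1 without jejunal sample 2, and 6.80 for Cyp1a1 and 4.13 for Ugt2b7 without jejunal sample 3. The carboxylesterase Ces1d fell by 2.09. Efflux pumps and organic ion carriers gave 3 rises and 3 falls among 17 (1 rise and 1 fall without colonic sample 1, and 1 fall without jejunal sample 2 or 3). These shares, 17.6% each way, lie near the 14.0% and 16.9% of all genes. Abcb1a, the drug efflux pump, did not pass (0.63, adjusted p = 0.446).

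Junction and microvillus genes changed gene by gene. Of 23 claudins and tight junction genes, 3 rose (13%, against 14.0% of all genes) and 6 fell (26.1%, against 16.9%). Of the 23, 5 were tested only through the colon and 1 only through the jejunum. Cldn15, which forms sodium-permeable pores in the small intestine, rose by 1.91 (SE 0.37, adjusted p = 0.000995), with 0.14, 0.35 and 0.23 in the jejunum against -2.01, -1.54 and -1.33 in the colon. The barrier-forming Cldn14 (-2.28), Cldn8 (-2.15) and Cldn3 (-1.55) fell. Of 16 microvillus genes, 4 rose (25%, against 14.0% of all genes) and 1 fell (6.25%, against 16.9%). Vil1 rose by 1.89 and Myo1a by 2.23, Eps8 by 5.47 with probes at 0.36 and 5.33 (4.28 without colonic sample 1 and 6.14 without jejunal sample 3), and the plastin Pls3 fell by 4.19.

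**Figure D5:**
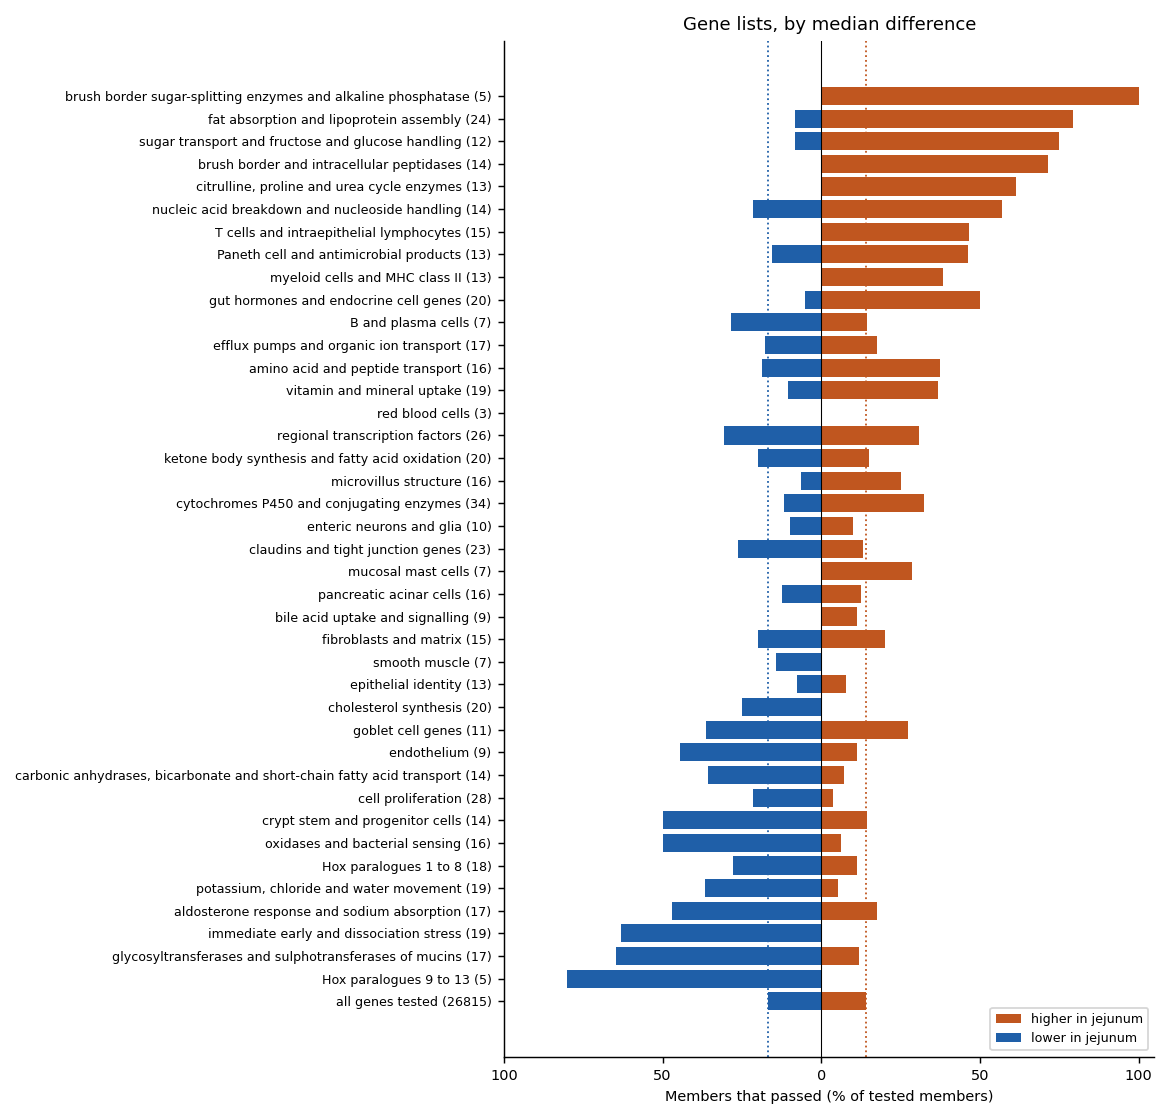
Share of the tested members of each gene list that were higher (orange, to the right) or lower (blue, to the left) in the jejunum, in percent, with dotted lines at the shares over all genes (14.0% higher and 16.9% lower). Lists are ordered by their median difference, with the number tested in brackets. Fat absorption reaches 79.2% higher and the mucin glycosylation list 64.7% lower.

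Few general epithelial genes passed the test. Of 13, 1 rose (Vil1), 1 fell (Tspan8, -0.83, with an adjusted p of 0.0517 without colonic sample 3) and 11 did not pass, among them Epcam (-0.29, adjusted p = 0.533), Krt8 (0.05, adjusted p = 0.926) and Krt20 (-0.28, adjusted p = 0.588). Their signals, each divided by the 75th percentile of the sample and added up, came to 508 to 950 in the jejunum and 812 to 993 in the colon.

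Crypt genes fell more often than they rose. Of 14 crypt genes 2 rose (14.3%, against 14.0% of all genes) and 7 fell (50%, against 16.9%), and 4 fell without colonic sample 1. Of the 14, 2 entered the test only through the colon. Prom1 had levels of 1.12, 1.74 and 1.85 in the jejunum against 5.0, 4.67 and 4.94 in the colon (difference -3.26, SE 0.32, adjusted p = 2.5e-06). Olfm4, a stem cell marker of the human gut, rose by 3.72 (SE 0.77, adjusted p = 0.00188), with -1.12, 2.33 and 2.04 in the jejunum against -2.56, -2.30 and -2.44 in the colon, and Lgr5 did not pass (0.84, adjusted p = 0.0803). The Olfm4 difference was 4.75 without jejunal sample 1 and 2.94 without jejunal sample 2. Of 28 genes of cell division 1 rose and 6 fell (21.4%, near the 16.9% of all genes), 8 of the 28 entering the test only through the colon, and the falls came to 2 without jejunal sample 1, 13 without jejunal sample 2, 1 without colonic sample 1 and 3 without colonic sample 3. Their summed signal was 28.1 in jejunal sample 1 and 77.7 and 78.9 in jejunal samples 2 and 3, against 106 to 113 in the colon. The part of this spread in the absorptive and crypt results was not tested.

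Many immediate early genes, which tissue handling can induce, fell in the jejunum. Of 19 immediate early and dissociation stress genes none rose and 12 fell (63.2%, against 16.9% of all genes; median -1.53), and 15 fell without jejunal sample 1. Egr2 had -2.38, -1.46 and -1.57 in the jejunum against 3.34, 2.46 and 2.57 in the colon (difference -4.64, SE 0.44, adjusted p = 1.45e-06), and Ier3 (-2.94), Klf2 (-2.80), Nr4a1 (-2.37) and Egr1 (-2.24) fell, whereas Fos (-0.62, adjusted p = 0.264) and Jun (-0.82, adjusted p = 0.119) did not pass. Summed signals were 191 to 498 in the jejunum and 664 to 824 in the colon. The part of tissue handling in other differences was not tested.

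Markers of other cells that the suspensions could hold also moved. Of 15 genes of T cells and intraepithelial lymphocytes, the lymphocytes that sit between epithelial cells, 7 rose and none fell (1 fell without jejunal sample 1; median 1.40). Of the 15, 2 entered the test only through the jejunum and 1 only through the colon. Granzyme A (Gzma) had levels of 3.95, 1.92 and 2.17 in the jejunum against -1.27, -1.25 and -1.22 in the colon (difference 3.86, SE 0.55, adjusted p = 7.88e-05), and Cd3g rose by 2.57 (SE 0.32, adjusted p = 2.33e-05). Cd7 rose by 4.56 with probes ranging from 1.02 to 4.64, while Cd8a (0.90, adjusted p = 0.101) and Cd3d (0.52, adjusted p = 0.247) did not pass. Summed signals of this list were 22.7 to 50.4 in the jejunum and 11.6 to 11.9 in the colon, and those of the myeloid list 25.6 to 45.5 in the jejunum and 10.7 to 12.9 in the colon. The myeloid sum includes Lyz2, which is also on the antimicrobial list, so it does not measure myeloid cells alone.

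Stromal lists did not move as wholes. Of 15 fibroblast and matrix genes, 7 of which entered only through the colon, 3 rose and 3 fell. Their summed signal was 7.66 to 10.6 in the jejunum and 146 to 179 in the colon, where Thbs4 and Ccn3 made up most of it. Dcn (0.70, adjusted p = 0.122) and Col3a1 (0.42, adjusted p = 0.283), which define fibroblasts, did not pass, and Col1a2 rose by 3.65 (SE 0.31, adjusted p = 5.27e-07), with a second probe at 1.08. Of 9 endothelial genes, 4 of which entered the test only through the colon, 1 rose and 4 fell, led by Esam (-3.03), and 1 fell without jejunal sample 1 or 3 or colonic sample 1 or 3. Smooth muscle (1 of 7 fell), enteric neurons and glia (1 rose and 1 fell of 10), B and plasma cells (1 rose and 2 fell of 7), mast cells (2 of 7 rose), red blood cells (none of 3 passed) and pancreatic acinar cells (2 rose and 2 fell of 16) completed the set, and leaving out 1 sample moved each of these counts by at most 2 members. Entry only through the colon held for 5 of the neuron and glia genes, 3 of the mast cell genes and 7 of the acinar genes. The summed signal of the B and plasma cell list was 16.5 to 38.4 in the jejunum and 57.9 to 76.8 in the colon, and Sdc1, which epithelial cells also make, fell by 1.38. The median difference of that list went the other way (0.75, and -0.32 without jejunal sample 3), and 4 of its 7 genes entered the test only through the colon. The part of these cells in the differences above was not tested.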

How the data were processed

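RNA of mucosal cells was measured on 2-colour Agilent arrays whose intensity values were deposited as scanner output. Per the file headers, the processed intensity of the jejunal arrays was background-subtracted, detrended and dye-normalised by Feature Extraction 9.5.1.1, and colonic arrays were read with version 10.1.1.1, whose headers do not give those settings. The deposited value table equalled the processed intensity of each sample's labelled dye within 0.02 on the log2 scale over 43628 spots.

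Here the log2 processed intensity, floored at 0.01, was reduced by each sample's 75th percentile. Spots marked non-uniform or as outliers were left out and duplicate spots averaged. A probe was tested if it was well above background in all 3 jejunal or all 3 colonic samples, and the brightest tested probe stood for its gene. Levels of 30809 probes entered limma 3.58.1 (R 4.3.3), with all 15 samples, segment and dye as fixed terms, slide as random block (correlation 0.343) and an intensity trend, and two-sided p-values were adjusted by Benjamini-Hochberg over all genes. The fit was checked on simulated data. Where no sample of the dimmer segment was well above background, the fold is a lower bound, which holds for the main processing only and carries no sampling error. It sets the brighter segment's mean over the dimmer segment's mean of, per array, the lowest signal among probes well above background or the probe's own, whichever was higher. The number of arrays limits the precision. Symbols came from the array files or, by accession or older symbol, from RefSeq.

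Named genes were the 6 markers, the 15 largest differences each way that were called with any 1 sample left out, did not overlap and had a settled symbol, and in each list up to 5 called members each way plus uncalled ones a sentence needed. Members and lists were chosen with earlier results of these data known, and no list was tested. Alternatives changed the scaling, background correction, filter, probe rule, model terms and samples. The samples share replicate numbers, but the labels do not give their meaning, so the numbers were not used as a block in the main fit. The second channel of the third colonic array was in no comparison. Some items are not reported here.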

Additional observations from a re-analysis of the deposited data

Results flagged for a closer look

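A signal lay outside the samples compared: the Cy3 channel of the array whose Cy5 channel is colonic sample 3 belongs to no sample here. Over 20287 probes it correlated at r = 0.994 with colonic sample 3, at 0.968 with colonic sample 1 and at 0.964 with colonic sample 2, while colonic samples 1 and 2, also the 2 channels of a single hybridisation, correlated at 0.989. Levels in that channel were 7.17 for Mptx1, 7.67 for Car1, 6.37 for Hsd11b2 and -2.25 for Gip, and Si and Mttp were not well above background. What RNA the channel holds is not given in the labels used here. Groups of 3 samples were too small to be screened for single outlying samples.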

How the results depend on the processing

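Counts of genes higher and lower in the jejunum were 3758 and 4542. They came to 1019 and 934 when the 6 jejunal and colonic samples were fitted alone, which leaves fewer samples to estimate the spread, and to 2280 and 2195 with the colonic samples averaged to 1, where that lone sample was assumed to vary like the other groups. With a replicate block the counts were 2763 and 2864. Same-numbered jejunal and colonic samples deviated from their group means with correlations of 0.103, -0.063 and -0.164, and differently numbered ones with -0.144 to 0.293. With 3 samples per segment, and colonic samples 1 and 2 from a single hybridisation, these values cannot decide whether the numbers pair the samples. Leaving out 1 sample gave 2856 to 3591 higher and 2964 to 4313 lower, both lowest without colonic sample 1. Under the other alternatives, among them 2 chosen after seeing the data (another array block and a filter over all 5 segments), counts stayed within 1.5 times the main ones, and normexp gave 3290 and 5528. Of 231 named genes, 136 kept their call and direction under every alternative in which they could be tested and 95 lost the call or changed sign under at least 1, 90 of them when the 6 samples were fitted alone, 47 with the colonic samples averaged to 1, 35 without colonic sample 1 and 34 with the replicate block. With the mean of all probes of a gene, Bco1 (0.318), Cldn18 (-0.363) and Flt1 (-0.018) reversed, none passing the test. Enpep was the only leading gene to lose its call, with a difference of 0.388 (adjusted p = 0.282) where all 6 samples had to be well above background, which changes the probe that stands for it. Signal over background limits genes dim in 1 segment, whose folds are lower bounds in the main processing only. Differences under the alternatives could be smaller than those bounds. The lowest were 6.88 for Si, 5.11 for Hnmt, 4.73 for Pla2g12a, 4.62 for Slc2a5, 3.99 for Leg1, 3.94 for Slc3a1 and 3.06 for Reg1a. The smallest falls were -2.78 for Spp1 and -3.41 for Hoxa4.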
